A study of Arabidopsis thaliana with 12 samples.

Results

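HLL (AT1G17560, HUELLENLOS), which encodes ribosomal protein L14 of the mitochondrial large subunit, its paralogue AT5G46160 and AT5G44710, which encodes the S27/S33 protein of the mitochondrial small subunit, were followed through 12 arrays of Arabidopsis (*Arabidopsis thaliana*) roots. The 3 genes have 1 probe set each, 3 of the 22746 probe sets analysed. HLL and AT5G44710 were chosen by their signals in *sahy1* against Col-0, since they stand among the translation genes that the study picked on these arrays, and AT5G46160 was added by locus as the paralogue of HLL. Their levels in comparisons that use the *sahy1* or Col-0 arrays are therefore a description with no test, and only SAHY1OE against Col-7 was tested for them. All 3 passed the filter on low signals, which 13834 probe sets passed. The study marks HLL, but not AT5G44710, as verified by its own RT-qPCR.

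Mitochondria keep their own ribosomes, which translate the few proteins encoded by the mitochondrial genome, while nearly all of their ribosomal proteins are encoded in the nucleus and imported. In bacterial ribosomes L14 lies on the face of the large subunit that meets the small one. In Arabidopsis, HLL is known for its role in ovule growth. SAHY1 is a nucleolar protein that acts on the precursors of cytosolic ribosomal RNA, so the genes described here belong to a different ribosome from the one SAHY1 is known to serve.

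The arrays were Affymetrix ATH1 GeneChips, with a MAS5 signal on a linear scale for each probe set. The groups, of 3 arrays each, were *sahy1*, a T-DNA insertion mutant of SAHY1 (AT2G01640), SAHY1OE, the SAHY1 overexpression line 4-1, and the wild types Col-7 and Col-0. The labels name Col-0 as the wild type of *sahy1* and Col-7 as that of SAHY1OE. All plants were 12 d old, with 5 d of growth on basal medium before a transfer and 7 d after it, and the methods call the arrays biological triplicates. The array labels give the mutant no allele number, and the study used the allele *sahy1-1*, with its insertion in the third exon, for its arrays. SAHY1OE is 1 line, its promoter is not named in the labels, and the sources used here do not say how many plants a sample pools.

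The arrays matched their labels in SAHY1 itself, with a mean signal of 71.8 ± 68.2 in *sahy1* and 348 ± 97.0 in Col-0, and of 20477 ± 370 in SAHY1OE and 265 ± 16.4 in Col-7 (SD, n = 3 each). Of 10 root markers, 2 have a named probe set, EXPA7 and EXPA18, root hair expansins, and both were present in every array. Their summed signal was 581 to 746 in *sahy1*, against 1304 to 1500.0 in Col-0, and 1283 to 1527 in SAHY1OE, against 1311 to 1525 in Col-7. Of 10 shoot markers only RCA, the Rubisco activase, has a named probe set, and its signal was 859 to 1012 in *sahy1*, 833 to 1060.0 in SAHY1OE, 1063 to 1164 in Col-7 and 823 to 883 in Col-0. The part of cell makeup in the values below was not tested, and in whole roots fewer cells of a type and less RNA per cell cannot be told apart. The ratio of the 3′ to the 5′ probe set of GAPDH, a sign of RNA integrity, was 0.850 to 0.897 in *sahy1*, 0.856 to 1.16 in SAHY1OE, 0.819 to 0.941 in Col-7 and 0.852 to 0.955 in Col-0.

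HLL had its highest signals in *sahy1* roots, at 596, 368 and 469 in replicates 1, 2 and 3. In Col-0 the signals were 167, 166 and 130. All mutant arrays thus lay above all Col-0 arrays, and the lowest mutant array was 201 signal units above the highest Col-0 array. The mean was 478 ± 114 in *sahy1* and 155 ± 21.1 in Col-0 (SD, n = 3 each), a 3.05-fold difference (log2 difference 1.61, standard error 0.17). Of all probe sets that passed the filter, 98.7% had a smaller absolute log2 difference between these groups. The filter asked for a signal of 110 to 122, depending on the array, so HLL in Col-0 lay only slightly above it. Detection calls were not used here.

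In SAHY1OE roots HLL had signals of 243, 238 and 273, and in Col-7 roots 303, 236 and 256. These groups overlapped and together lay between *sahy1* and Col-0. The order of the mean levels was *sahy1*, Col-7 at 265 ± 34.4, SAHY1OE at 251.5 ± 19.0 and Col-0 (SD, n = 3 each), and the neighbours Col-7 and SAHY1OE did not differ beyond their spread. In *sahy1* against Col-7 the log2 difference was 0.83 (standard error 0.17, 1.78-fold), with every mutant array above every Col-7 array. In Col-7 against Col-0, both wild type, it was 0.78 (standard error 0.17, 1.71-fold), again with no overlap. The 3 comparisons share arrays, so the distance between the mutant and Col-0 is on the log2 scale the sum of the other 2 distances.

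**Figure D1:**
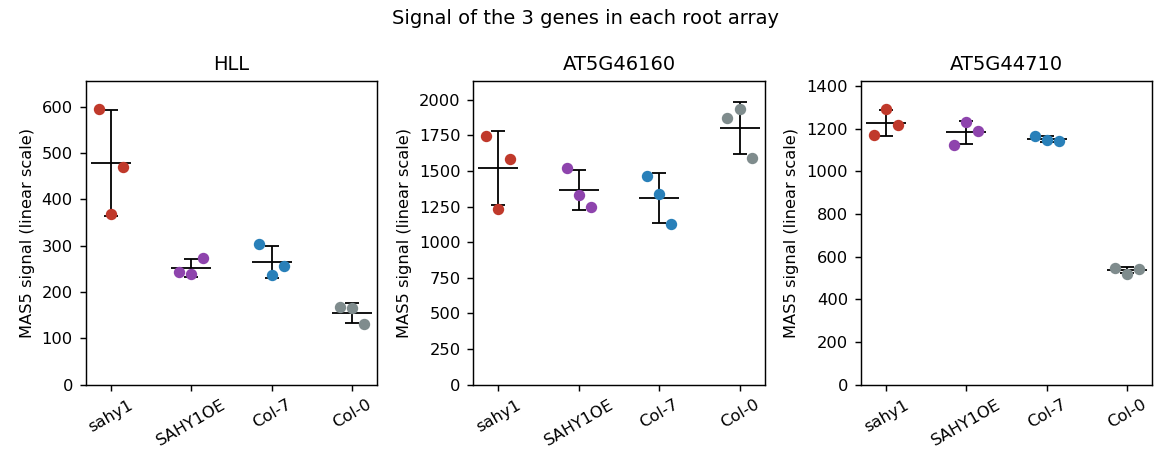
MAS5 signal on a linear scale (vertical axis, from 0) of HLL, AT5G46160 and AT5G44710 in each of 3 arrays of *sahy1*, SAHY1OE, Col-7 and Col-0 roots. Points are arrays in the order of replicates 1 to 3, and the bars give the group mean and 1 SD. HLL averaged 478 in *sahy1*, AT5G44710 averaged 1152 to 1227 outside Col-0 and 535 in it, and AT5G46160 was highest in Col-0, with a mean of 1801.

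The paralogue AT5G46160 did not share this order. Its signals were 1743, 1236 and 1583 in *sahy1*, against 1870, 1938 and 1594 in Col-0, and these groups overlapped. They were 1520, 1329 and 1249 in SAHY1OE, against 1467, 1338 and 1126 in Col-7, and these groups overlapped as well. In descending order the mean levels were 1801 ± 182 in Col-0, 1521 ± 259 in *sahy1*, 1366 ± 139 in SAHY1OE and 1310.3 ± 172 in Col-7 (SD, n = 3 each). The *sahy1* arrays overlapped with each of the other groups. The Col-7 arrays all lay below the Col-0 arrays, and so did those of SAHY1OE.

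The log2 difference of AT5G46160 was -0.25 (standard error 0.15) in *sahy1* against Col-0, where 59.1% of probe sets had a smaller absolute difference, and 0.21 (standard error 0.15) in *sahy1* against Col-7. Its sign thus depended on the wild type that was used. In Col-7 against Col-0 it was -0.46 (standard error 0.15), opposite in sign to the 0.78 of HLL. The log2 signals of HLL and AT5G46160 had a Pearson r of -0.184 over the 12 arrays, and those of AT5G46160 and AT5G44710 of -0.691, a description that rests on the differences between 4 groups.

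AT5G44710 was low in a single group. Its signals were 1172, 1293 and 1216 in *sahy1* and 1125, 1232 and 1189 in SAHY1OE. They were 1166, 1148 and 1141 in Col-7, and 547, 519 and 540 in Col-0. The arrays of the other 3 groups spanned 1125 to 1293, and the highest Col-0 array was 594 signal units below the lowest Col-7 array. Mean levels were 1227 ± 61.6 in *sahy1*, 1182 ± 54.3 in SAHY1OE, 1152 ± 12.9 in Col-7, with 535 ± 14.3 for Col-0 (SD, n = 3 each).

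The difference of AT5G44710 between *sahy1* and Col-0 was 2.29-fold (log2 difference 1.20, standard error 0.10), and that between Col-7 and Col-0 was 2.15-fold (log2 difference 1.11, standard error 0.10). In *sahy1* against Col-7 the log2 difference was 0.09 (standard error 0.10), smaller than its standard error, and the lowest mutant array was 5.62 signal units above the highest Col-7 array. For this gene the mutant thus lay near Col-7, a wild type, and not near Col-0. The mutant arrays of HLL lay above those of both wild types as well, by 65.7 signal units over the highest Col-7 array, with the log2 difference of 0.83 given above.

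Overexpression of SAHY1 was tested against Col-7, a comparison that the choice of HLL and AT5G44710 on *sahy1* and Col-0 did not use. A call required more than a 2-fold difference together with an adjusted p below 0.05. None of the 3 was called by limma, none reached an unadjusted p below 0.05, and the methods' unpaired test called none of them. Of all probe sets, 0.0145% were called higher and 0.00723% lower in SAHY1OE, so very few calls were made at all. The log2 difference of HLL was -0.07, with a 95% interval from -0.44 to 0.30 (limma adjusted p = 1). That of AT5G46160 was 0.06, with an interval from -0.27 to 0.40 (limma adjusted p = 1), and that of AT5G44710 was 0.04, with an interval from -0.19 to 0.26 (limma adjusted p = 1). The intervals leave room for folds of 0.737 to 1.23 for HLL and of 0.878 to 1.20 for AT5G44710.

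The genes were then set beside other nuclear genes for proteins of the mitochondrial ribosome, from a list of loci made by hand. Of 61 loci on it, 35 have a named probe set and 34 passed the filter, 23 of the large and 11 of the small subunit. In *sahy1* against Col-0, 28 of the 34 had a log2 difference above 0, a share of 82.4%, against 50.1% of all probe sets. Their median was 0.16, with 0.25 in the large subunit and 0.08 in the small, against 0.00 over all probe sets. Only AT1G24240, of the large subunit, was called, and it was higher. Of all probe sets, 2.37% were called higher and 1.76% lower. Without the threshold on the fold, 3 of the 34 were higher and 0 lower at a limma adjusted p under 0.05, against 7.70% and 7.32% of all probe sets, and the unadjusted p was below 0.05 for 9 that were higher and 0 that were lower, against 14.2% and 13.8% of all probe sets. With the methods' unpaired test 0 were called. The share of called genes, which rests on 1 call, was near that of all probe sets. At the unadjusted p the genes were all higher, 9 of 23 in the large subunit and 0 of 11 in the small. The 3 at an adjusted p under 0.05 were also of the large subunit, and the difference between the subunits was not tested. The differences of HLL (1.61) and AT5G44710 (1.20), chosen for them, stood far from the list's median.

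AT1G24240 had signals of 220, 79.9 and 202 in *sahy1*, against 48.2, 44.2 and 85.4 in Col-0, and these groups overlapped. The log2 difference was 1.43 (limma adjusted p = 0.0132). In SAHY1OE its signals were 208, 157 and 167, against 148, 184 and 99.8 in Col-7. All 3 Col-0 signals lay below the filter, which the gene passed through SAHY1OE alone, so the size of its fold is uncertain, and the call was lost without *sahy1* replicate 1 or 3 or without Col-0 replicate 1 or 2. The other 2 genes with an adjusted p under 0.05, AT3G01790 and AT5G64650, had log2 differences of 0.42 and 0.46 (limma adjusted p = 0.0204 and 0.0139), under 2-fold. The rest of the list lay between -0.23 and 0.48.

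In *sahy1* against Col-7 the same list had 28 of 34 values above 0 (51.0% of all probe sets were above 0) and a median of 0.20, but no gene was called. Of all probe sets, 1.34% were called higher and 1.02% lower in this comparison. At an adjusted p alone, 1 gene was higher and 0 were lower, against 6.22% and 6.69% of all probe sets, while the unadjusted p was below 0.05 for 11 that were higher and 0 that were lower, against 14.0% of all probe sets in each direction, and the methods' unpaired test called 0. The largest values were 0.54 for AT5G53070, 0.51 for AT3G49080 (limma adjusted p = 0.0560 and 0.0162) and 0.38 for AT5G20180 (limma adjusted p = 0.0631). AT3G49080, of the small subunit, had signals of 1146, 996 and 1104 in *sahy1*, against 867, 660 and 760 in Col-7, with no overlap, and its second, dimmer probe set gave a log2 difference of 0.66 (limma adjusted p = 0.0296). The value of HLL in this comparison (0.83) exceeded all 34 list values, and that of AT5G44710 (0.09) did not stand out from them. Both genes were chosen with the same *sahy1* arrays, so their ranks beside the list are a description only. The mutant arrays are shared with the comparison above, so the counts above 0 in these 2 comparisons are not independent.

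**Figure D2:**
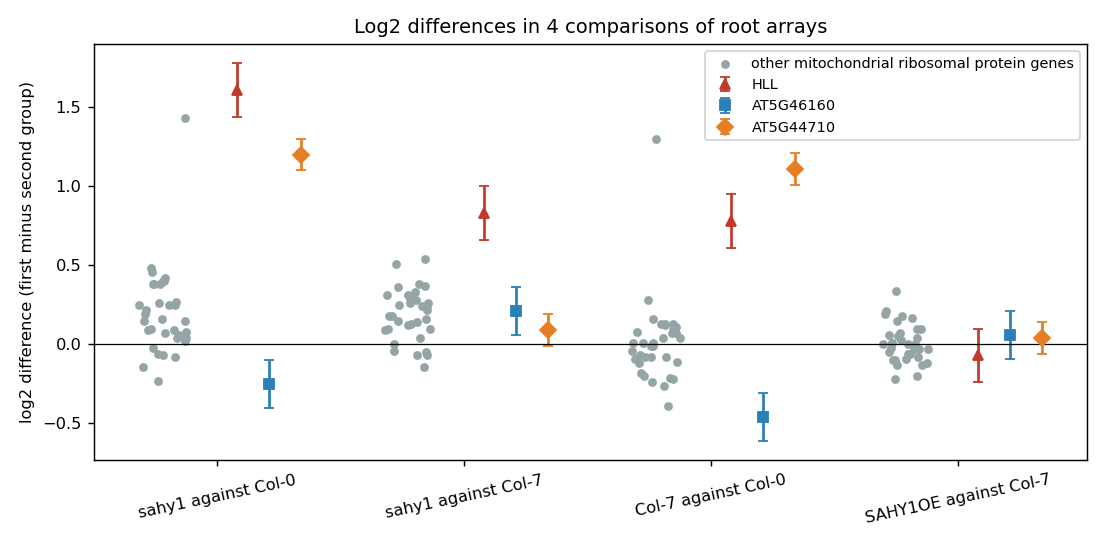
Log2 differences, first minus second named group (vertical axis), in 4 comparisons (horizontal axis). Grey points are 34 other genes for mitochondrial ribosomal proteins, and coloured symbols with bars of 1 standard error are HLL, AT5G46160 and AT5G44710. HLL stood at 1.61, 0.83, 0.78 and -0.07, AT5G44710 at 1.20, 0.09, 1.11 and 0.04, and the list medians between -0.00 and 0.20.

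Between the wild types 17 of 34 values were above 0 and 17 below in Col-7 against Col-0, with a median of -0.00. Values above 0 were 14 of 23 in the large subunit (median 0.04) and 3 of 11 in the small (median -0.04), against 48.4% of all probe sets, and the difference between the subunits was not tested. None was called by limma, against 1.27% of all probe sets called higher and 0.535% called lower in Col-7, while the unadjusted p was below 0.05 for 2 genes that were higher and 2 that were lower, against 7.63% of all probe sets in each direction, and the methods' unpaired test called 0. The largest value was 1.30 for AT1G24240 (limma adjusted p = 0.0551), followed by -0.39 for AT3G26360 and 0.28 for AT5G64650 (limma adjusted p = 0.252 and 0.250). The values of HLL (0.78) and AT5G44710 (1.11) exceeded those of 33 of the 34 genes, and AT5G46160 (-0.46) lay below all 34. As HLL and AT5G44710 were chosen with the same Col-0 arrays, their ranks are a description only. In SAHY1OE against Col-7 limma called 0 of the 34, the methods' unpaired test likewise 0, and 0 had an unadjusted p below 0.05, against 2.10% of all probe sets that were higher and 2.61% that were lower. Values ran from -0.22 for AT1G77750 to 0.34 for AT1G24240, with 0.21 for AT4G31460.

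The named genes most like each of the 3 were found by the Pearson r of log2 signals over the 12 arrays, among 7446 named probe sets that passed the filter. For HLL these were AT3G53190 (r = 0.940), AT4G12490 (0.939), AT5G14450 (0.932), AT1G74790 (0.927) and FAC1, an AMP deaminase (0.924). In each of the 5 the group mean was highest in *sahy1* and lowest in Col-0, as in HLL. AT4G12490 had the widest range, with a mean signal of 951 in *sahy1*, 168 in SAHY1OE, 225 in Col-7 and 75.2 in Col-0, while FAC1 had 1875 in *sahy1*, 1565 in SAHY1OE, 1581 in Col-7 and 1437 in Col-0. The Col-0 mean of AT4G12490 lay below the filter, which the gene passed through groups where it was higher, so the size of its range is uncertain.

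For AT5G46160 the most alike were FOLB2 (r = 0.927), AT4G20830 (0.923), ETFBETA (0.912), AT2G46000 (0.910) and AT5G42670 (0.907). All 5 had their highest mean in Col-0. ETFBETA, a subunit of the mitochondrial electron transfer flavoprotein, averaged 683 in *sahy1*, 649 in SAHY1OE, 679 in Col-7 and 825 in Col-0. FOLB2, an enzyme of folate synthesis, averaged 491 in *sahy1*, 408 in SAHY1OE, 407 in Col-7 and 649 in Col-0.

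The genes most like AT5G44710 followed it more closely. They were AT1G12400 (r = 0.991), AT3G43740 (0.988), AT3G27200 (0.981), AT4G02540 (0.980) and AT1G12010 (0.980), and each was low in Col-0 alone. AT3G43740 averaged 654.5 in *sahy1*, 593 in SAHY1OE, 580 in Col-7 and 15.5 in Col-0, and AT1G12010 averaged 2095 in *sahy1*, 2190.4 in SAHY1OE, 2177 in Col-7 and 635 in Col-0. The Col-0 means of AT1G12400, AT3G43740 and AT4G02540, 47.8, 15.5 and 61.3, lay below the filter, which these genes passed through the other groups, while all Col-0 signals of AT5G44710 were above it. None of the 15 genes is on the list of mitochondrial ribosomal proteins described above. That list had only 34 genes among the 7446 named probe sets compared, so this absence says little. The points share groups, so r says only that group levels have a like order.

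**Figure D3:**
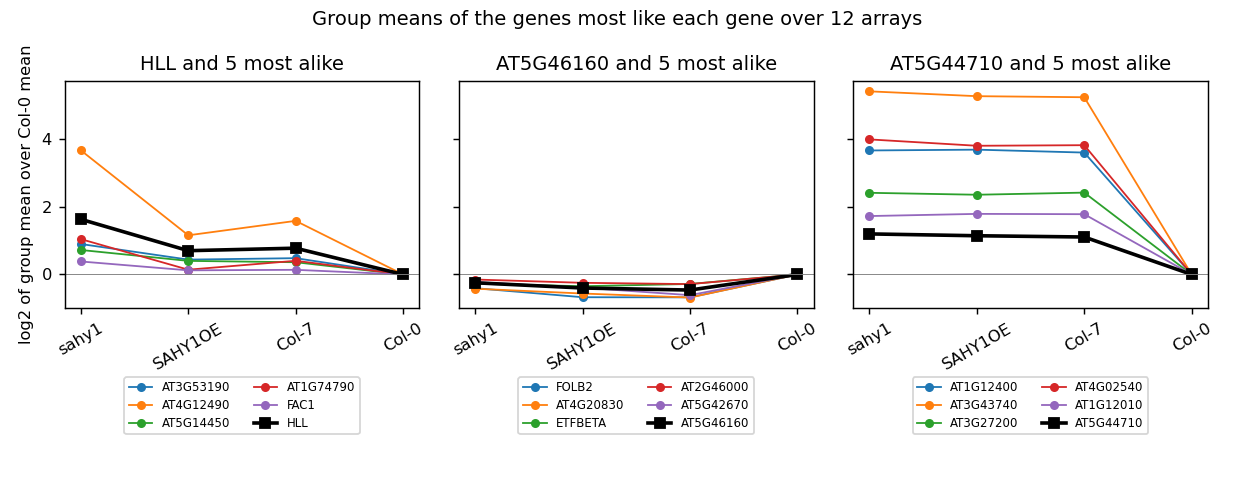
Log2 of each group mean signal over the Col-0 mean (vertical axis) for HLL, AT5G46160 and AT5G44710 (black squares) and the 5 named genes with the highest Pearson r to each over 12 arrays (coloured points, joined by lines to guide the eye). The black line of AT5G44710 is flat over *sahy1*, SAHY1OE and Col-7, with group means of 1152 to 1227, and that of HLL has a step of its own in *sahy1*, with a mean of 478.

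The genes lie on chromosome 1 (HLL) and chromosome 5 (AT5G46160 and AT5G44710) in the RefSeq annotation of assembly TAIR10.1, with 36 measured genes between the pair on chromosome 5. The 10 measured genes on each side of every one of them were examined, a choice made after the values had been seen. Around AT5G44710, 5 of the 20 neighbours were called higher and 0 lower in Col-7 against Col-0, where 1.27% of all probe sets were called higher. They were CML43, AT5G44500, VPS2.2, AT5G44910 and AT5G45020, with log2 differences of 1.67, 1.77, 1.14, 1.01 and 1.91 (limma adjusted p = 2.9e-05, 3.01e-05, 0.0114, 0.000977 and 1.26e-05). The Col-0 means of AT5G44500 and AT5G45020, 79.1 and 53.7, lay below the filter, so these genes passed it through groups where they were high and the size of their differences is uncertain. CML43 is a calmodulin-like protein and VPS2.2 belongs to the membrane-sorting machinery. In *sahy1* against Col-0, where 2.37% of all probe sets were called higher, 4 of the 20 were, AT5G44400, AT5G44500, VPS2.2 and AT5G45020, with log2 differences of 1.44, 1.86, 1.35 and 1.82 (limma adjusted p = 2.88e-05, 1.04e-05, 0.00147 and 9.74e-06). In *sahy1* against Col-7 none of these was called higher, and CML43 was lower (log2 difference -1.10, limma adjusted p = 0.00113). AT5G44400 was just under the 2-fold threshold there, at 0.99 (limma adjusted p = 0.00139), and stood at 0.45 in Col-7 against Col-0. The called genes stood among others that were not called, and the nearest neighbours, AT5G44680 and AT5G44720, had values of 0.09 and 0.44 in Col-7 against Col-0 (limma adjusted p = 0.887 and 0.131).

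Around AT5G46160, 2 of 20 neighbours were called higher in Col-7 against Col-0, where 1.27% of all probe sets were called higher. Both lay directly before it, AT5G46080 at 2.04 and AT5G46150 at 1.24 (limma adjusted p = 1.15e-05 and 0.00347), while AT5G46160 itself was at -0.46. The means of AT5G46080 were 92.7 in *sahy1* and 39 in Col-0, both below the filter, which it passed through the other groups, so the size of its differences is uncertain. AT5G46080 was also called in *sahy1* against Col-0, at 1.26 (limma adjusted p = 0.000402), and AT5G45840 was called lower there, at -1.33 (limma adjusted p = 0.000504). That comparison had 2.37% of all probe sets called higher and 1.76% lower. AT5G45840 stood at -0.99 in Col-7 against Col-0 and at -0.34 in *sahy1* against Col-7 (limma adjusted p = 0.01 and 0.292). Its *sahy1* and Col-7 means, 73.8 and 91.8, lay below the filter, so the size of its differences is uncertain. Around HLL no neighbour was called between the wild types by limma, and values ran from -0.57 to 0.90. Without the threshold on the fold, AT1G17330 (0.90), AT1G17620 (0.81) and GER2 (0.56) were higher in Col-7 (limma adjusted p = 0.00473, 0.0257 and 0.0292). By that rule 355 of the 13834 probe sets were higher and 229 lower. The Col-0 mean of AT1G17330, 85.9, lay below the filter. In *sahy1* against Col-0, 2 of the 20 neighbours of HLL were called higher, against 2.37% of all probe sets. One was the next measured gene, AT1G17620, at 1.28 (limma adjusted p = 0.000479), which stood at 0.81 in Col-7 against Col-0. The other was AT1G17960, a threonyl-tRNA synthetase that the study picked on these arrays and listed with HLL. Its call follows from that choice, so only its values are given. They were 1.92 in *sahy1* against Col-0 and -0.27 between the wild types. In *sahy1* against Col-7, AT1G17960 stood at 2.18, likewise given with no test. Its Col-7 mean of 105.1 lay below the filter, so the size of that difference is uncertain. AT1G17300, at the far end of the HLL neighbours, was called lower in *sahy1* against Col-7, at -1.35 (limma adjusted p = 9.86e-05). Near AT5G46160 only AT5G45670 was called in that comparison, at 1.28 (limma adjusted p = 0.00411). Its Col-7 mean of 103.0 lay below the filter, so the size of its difference is uncertain. The shares of all probe sets called in *sahy1* against Col-7 were 1.34% higher and 1.02% lower. Of the 60 neighbours, limma called 0 in SAHY1OE against Col-7, where only 0.0145% of all probe sets were called higher and 0.00723% lower.

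**Figure D4:**
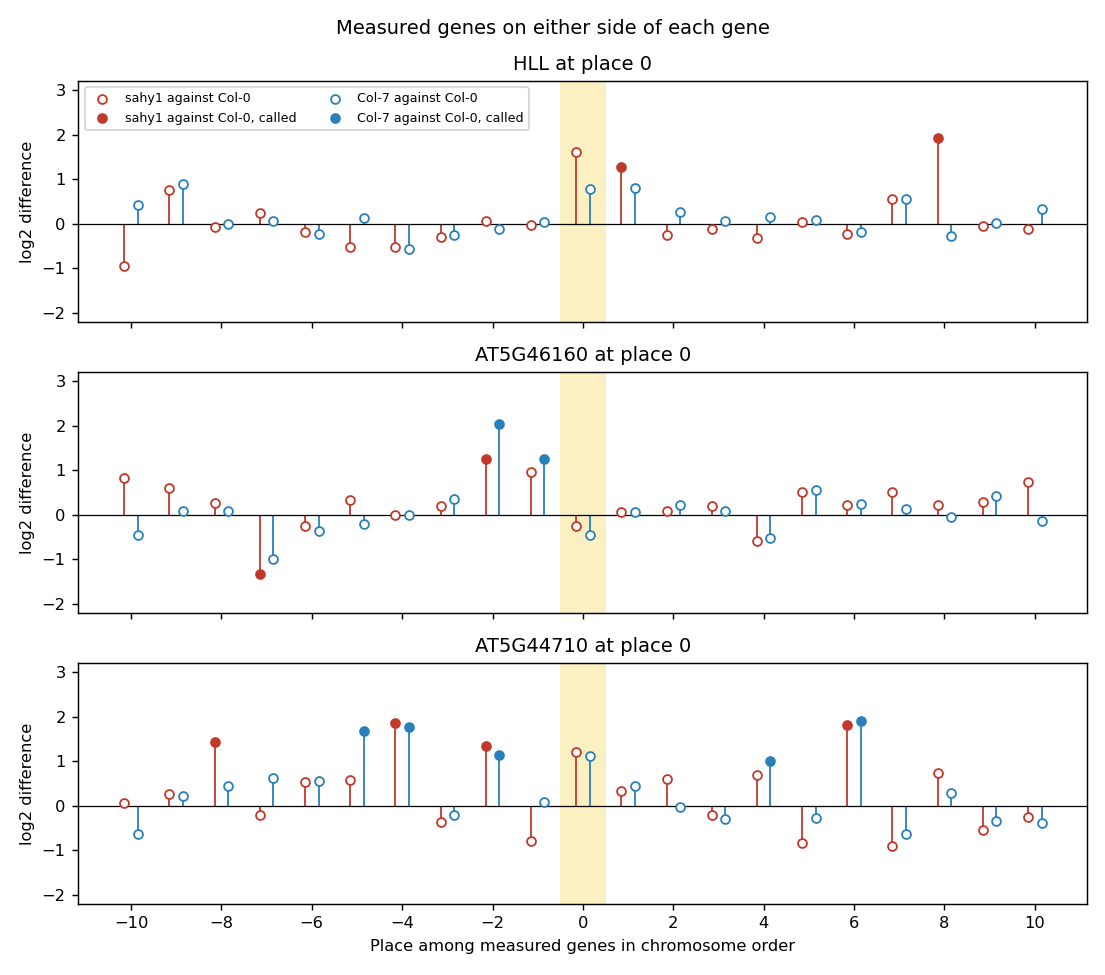
Log2 differences (vertical axis) of *sahy1* against Col-0 (red) and Col-7 against Col-0 (blue) for the 10 measured genes on each side of HLL, AT5G46160 and AT5G44710, by place in chromosome order (horizontal axis). Filled points are neighbours called by limma, and the shaded place 0 is the gene itself, drawn open as it was not tested. The filled red point at place 8 of HLL is AT1G17960, which the study picked on these arrays. AT5G44710 has 5 filled blue points around it, AT5G46160 has 2 and HLL has 0, where 1.27% of all probe sets were called higher and 0.535% lower.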

How the data were processed

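The data were MAS5 signal intensities of probe sets on 12 ATH1 arrays, deposited by the authors in linear units, with each array scaled to a common mean of 500 once 2% of probe sets were left out at each end. Sequencing depth does not apply, and 3 arrays per group limit the precision. Signals under 1 were set to 1 and log2 was taken. Of 22810 probe sets 64 controls were left out, and 13834 were kept, with all 3 arrays of at least 1 group at or above the 40th percentile of their array. Using limma 3.58.1 (R 4.3.3), group means were fitted to all arrays together, and p-values were adjusted by Benjamini-Hochberg over all probe sets kept. Calls required more than a 2-fold difference and an adjusted p below 0.05. The code was run on simulated data with independent noise and set changes in SAHY1OE alone, which checks the code and says nothing of these arrays. The methods' unpaired test was an alternative.

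The platform table and RefSeq (TAIR10.1) paired 13436 probe sets with 1 gene. Another 503 paired with several, 8730 with none, and 77 had an entry not matched here, and these are not named. Of genes with several probe sets the brighter was used. The members were fixed by locus and the list of mitochondrial ribosomal proteins by hand (65 loci, the 3 members among them, 1 left out as plastid by its RefSeq synonym), and both were chosen with earlier results of these data known. The tables used here hold no gene descriptions to check the list against. Named list genes were those called in a comparison or, where none was, the 3 with the largest absolute log2 difference, and for each member the 5 most alike. Probe sequences were not used here, so cross-hybridisation between HLL and AT5G46160 was not checked. Array images and detection calls were not analysed here.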

Additional observations from a re-analysis of the deposited data

How the results depend on the processing

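The 3 genes were refitted with other scalings, an added 32, other filters, 2 groups alone, a limma trend, a replicate block and without each array, and 168 of 171 such values kept their direction and call or moved by less than the spread between replicates. The other 3 were small values of SAHY1OE against Col-7 that changed sign, with HLL at 0.03 without Col-7 replicate 1 and AT5G46160 at -0.02 without SAHY1OE replicate 1 and -0.04 without Col-7 replicate 3. Leaving out 1 array gave -0.15 to 0.03 for HLL and -0.04 to 0.15 for AT5G46160 there. With groups of equal size, the other filters, 2 groups alone, the trend and the block cannot move a difference of group means. They change its standard error, and could change a call only in SAHY1OE against Col-7. In the other comparisons these values were kept by design, so the count of 168 overstates how much was put to the test. Adjusted p for the 3 genes in SAHY1OE against Col-7 lay between 0.948 and 1 under every alternative. The value of HLL was 1.43 to 1.78 in *sahy1* against Col-0, 0.66 to 1.01 in *sahy1* against Col-7 and 0.66 to 0.86 in Col-7 against Col-0, and that of AT5G44710 was 1.15 to 1.23, 0.05 to 0.12 and 1.06 to 1.12. Array signals near the filter limit the size of the HLL fold, which adding 32 brings to 1.43 on the log2 scale.

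The counts moved more. For *sahy1* against Col-0, 572 probe sets were called, 330 with a filter at the 60th percentile, 285 with the methods' unpaired test and 2077 on adjusted p alone. For *sahy1* against Col-7 the 327 called became 179, 46 and 1786, and for Col-7 against Col-0 the 250 called became 147, 25 and 584 under the same settings. The 3 calls of SAHY1OE against Col-7 became 0 with no filter and 1 with 2 groups alone or with the methods' unpaired test. Of the mitochondrial ribosomal protein genes, the 1 called in *sahy1* against Col-0 became 0 with no filter, with the 60th percentile filter and with the methods' unpaired test, 3 on adjusted p alone, and 0 to 1 without single arrays. In *sahy1* against Col-7 the 0 called became 1 on adjusted p alone, and in Col-7 against Col-0 the 0 called became 1 with median centring, 2 groups alone or a limma trend, and 0 to 1 without single arrays (1 without Col-7 replicate 3 or Col-0 replicate 3). The cause of these changes was not tested, beyond the filters and thresholds changing which probe sets can pass.

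The labels do not say that a replicate number marks a shared batch, and in none of the comparisons did every same-numbered pair of arrays have deviations from the group means that correlated above 0.1, so the numbers were not used to pair arrays. These correlations were -0.021 to 0.234 for *sahy1* and Col-0, -0.100 to 0.086 for *sahy1* and Col-7, 0.041 to 0.239 for Col-7 and Col-0 and 0.058 to 0.235 for SAHY1OE and Col-7. As a hint from the data, the arrays that correlated best with their own number were 3, 0, 5 and 6 of 6 in the same order. The replicate block gave 575 calls in *sahy1* against Col-0, against 572 without it.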

Other observations

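Among the *sahy1* arrays, replicate 2 had the lowest signal of HLL (368) and of AT5G46160 (1236) and the highest of AT5G44710 (1293). It also had the lowest signal of SAHY1, at 7.01, against 65.5 and 142.9 in replicates 1 and 3. The SAHY1 signals of 7.01 and 65.5 lay below the filter, so their order is uncertain, and a link to the 3 genes was not tested. Without *sahy1* replicate 2 the log2 difference of HLL in *sahy1* against Col-0 was 1.78. AT5G46160 was the 1 gene of the 3 with a lower mean in *sahy1*, SAHY1OE and Col-7 than in Col-0.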
